A study of Mus musculus with 3 samples.

Results

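RNA pools of PDGFRα-CAR+ and PDGFRα+CAR+ cells, both Flk1+, were set against each other on 1 two-colour array, which is 1 of the 3 arrays of the series. The array was taken by its title, and its spots were used where the name was a probe identifier and neither channel was flagged. That left 23472 of 23474 probe spots. The cells were sorted from embryoid bodies, aggregates of differentiating mouse ES cells (line BRC6 in the labels), after 7 days of culture. RNA from 5 separate experiments was pooled before labelling. Each population is thus 1 pool, sorted by surface staining, and no value here has an error between cultures or sorts. PDGFRα-CAR+ RNA carried Cy3 and PDGFRα+CAR+ RNA carried Cy5, with no array in the reverse orientation. The other arrays each set 1 of these pools against the Flk1+PDGFRα-CAR- pool.

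Flk1 is the VEGF receptor encoded by Kdr, and marks mesoderm that can give rise to blood vessels, blood and heart. PDGFRα is a receptor tyrosine kinase for platelet-derived growth factors. In the early embryo it is known for its expression in paraxial and cardiac mesoderm, and Flk1+ mesoderm that lacks it is usually associated with endothelial and blood progenitors. CAR, the coxsackievirus and adenovirus receptor encoded by Cxadr, is a cell adhesion protein of cell junctions. Both pools compared here were sorted as Flk1+ and CAR+, and differ by the gate on PDGFRα. No table used here pairs the probes with genes. The sorted genes and the markers of endothelium, blood, heart or other cells therefore could not be looked up, and the labelled identity of the pools was not checked. Probes are described by identifier, and no probe sequence is printed.

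A probe was taken as above background in a pool if it was brighter, on both arrays that held the pool, than all but the top 2.5% of the blank spots and of the spots without a probe. On the array of the CAR+ pools this limit was 76.5 scanner units in Cy3 and 26 in Cy5. Of 23469 probes usable on all arrays, the PDGFRα-CAR+ pool had 15568 above background and the PDGFRα+CAR+ pool 14098, with 13842 shared by both. The PDGFRα-CAR+ pool alone had 1726 probes above background, whereas the PDGFRα+CAR+ pool alone had 256. This gap cannot be told apart from the dyes on the array of the CAR+ pools. The share of probe spots above the limit was higher in Cy3 than in Cy5 on every array, at 71.5% against 60.7% here, and 68.4% against 58.1% and 66.3% against 54.1% on the others. In Cy3 on those other arrays the pools were closer, with 68.4% of spots above the limit for PDGFRα-CAR+ and 66.3% for PDGFRα+CAR+ RNA. The limits behind these shares differed, at 89 and 76 scanner units.

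Few probes separated the CAR+ pools. The log2 ratio, PDGFRα-CAR+ over PDGFRα+CAR+, was read directly from the array (direct ratio). It was also obtained by subtracting the ratios of both pools over PDGFRα-CAR- RNA on the other arrays (indirect ratio). The indirect ratio compares the pools in Cy3 on both sides, so a dye effect that is constant for a probe cancels out of it. A probe was counted when both ratios reached 1 in size with the same sign, which is 2-fold. Counted as higher in the PDGFRα-CAR+ pool were 296 of 15824 probes above background in either pool (1.87%), and as lower 278 (1.76%). With 1 array there is no test of these counts. The median direct ratio was 1.48 among the higher probes (2.79-fold) and -1.44 among the lower (2.71-fold). Over all 15824 probes the median was 0.0094, and 95.9% of direct ratios were below 1 in size. The normalisation centres the ratios of each array near 0, so that median is not a result about the pools. Close to the threshold, with the smaller of both ratios under 1.1 in size, lay 48 of the higher and 52 of the lower probes.

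**Figure D1:**
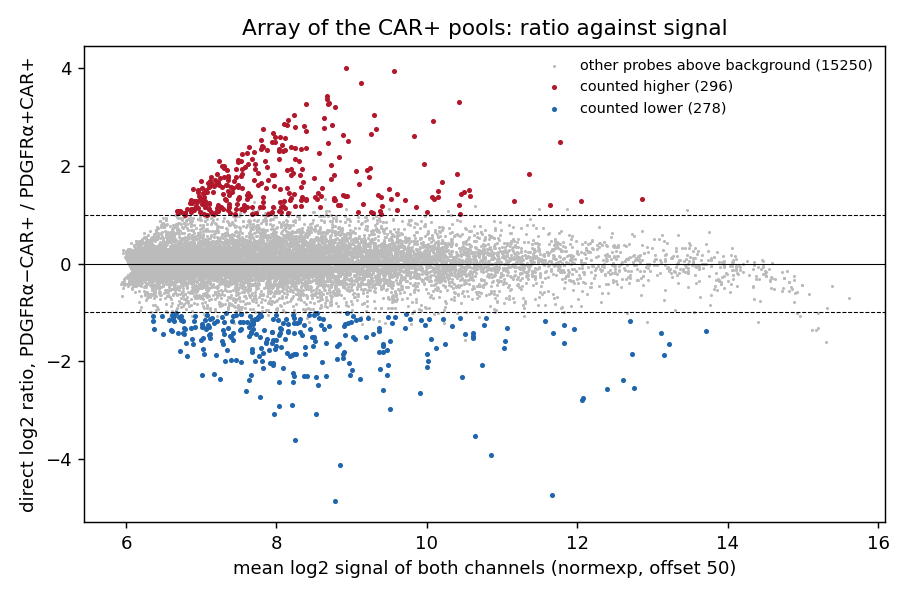
Direct log2 ratio of PDGFRα-CAR+ over PDGFRα+CAR+ RNA (vertical axis) against the mean log2 signal of both channels (horizontal axis), 1 point per probe above background in either pool, with dashed lines at 1 and -1. The 296 red points were counted as higher and the 278 blue points as lower in the PDGFRα-CAR+ pool, and the brightest grey points bend below 0.

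The counts depended on background and scaling more than on the route. With an offset of 10 in place of 50 in the background correction, which compresses dim ratios less, 516 probes were higher and 451 lower. In the authors' deposited ratios the same rule gave 638 and 476. Subtracting the local background raised the counts to 846 and 779, and entering it in the normexp step lowered them to 185 and 162. When each array was only centred on its median, the numbers were 436 and 132, or 76.8% higher in place of 51.6%. That centring left the probes above background in all pools with a median direct ratio of 0.47. Across the reported setting and its 13 alternatives, 167 probes were counted as higher every time and 57 as lower every time. One of those alternatives is the authors' table, which gives no ratio for some probes. No probe counted here was counted in the opposite direction under any of those alternatives. The direct or the indirect ratio alone, and a looser or no background limit, only loosen the rule. They could not drop a counted probe.

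By number of probes, the larger differences were mostly toward the PDGFRα-CAR+ pool. The largest direct ratio was in the other direction, at -4.85 against 4.01. At least 4-fold apart on both routes were 69 probes higher and 30 lower in these cells, and at least 8-fold 12 and 4. The 4-fold split was uneven on the indirect route, with 87 higher and 33 lower, and less so on the direct route, with 69 and 51. At 8-fold the indirect route gave 22 and 4, and the direct route 12 and 8. Higher probes outnumbered lower ones at 4-fold in every setting tried. The sizes of the counts varied widely, from 34 and 18 with the local background entered in the normexp step to 240 and 79 in the authors' deposited ratios and 261 and 188 with local background subtracted. At 2-fold, 50.4% to 53.4% of counted probes were higher in all settings but the authors' deposited ratios (57.3%) and median centring (76.8%).

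Direct and indirect ratios placed nearly the same probes past 2-fold. Of 324 probes at least 2-fold higher on the direct route, 296 (91.4%) also passed on the indirect route. Of 319 lower probes on the direct route, 278 (87.1%) did. Most probes that missed the indirect route did so narrowly, but not all. The indirect ratio reached 0.8 in size for 24 of 28 missed higher and 30 of 41 missed lower probes. The smallest sizes were 0.45 and 0.083. Among the 28 missed higher probes the indirect ratio had a median of 0.91, and among the 41 missed lower probes its median size was 0.92. No probe past 2-fold on 1 route had the opposite sign on the other.

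Over the 12153 probes above background in all pools, the indirect minus the direct ratio had a median of -0.029, and a robust spread that corresponds to an SD of 0.083 per array ratio. That SD was 0.085, 0.082 and 0.081 when these probes were split by signal into equal parts (dim, middle and bright). The offset holds dim ratios close to 0, so an even SD does not mean equal precision. Direct ratios had an SD of 0.24, 0.52 and 0.52 in the same order, and the correlation between routes was 0.82, 0.96 and 0.95. Over all 12153 probes the SD per array ratio became 0.41 with local background subtracted, 0.19 with local background entered in normexp and 0.17 with median centring. It is a technical error only, and differences between sorts or cultures are not part of it.

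**Figure D2:**
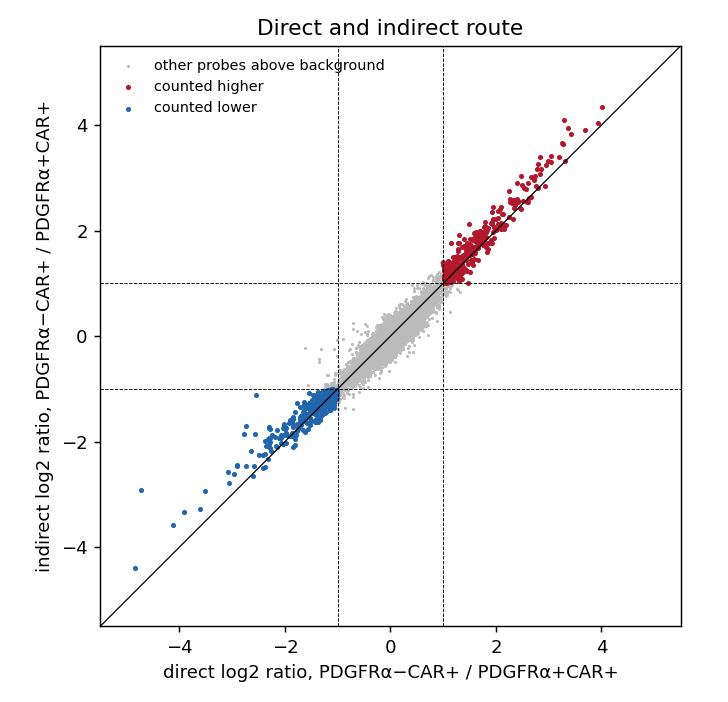
Indirect (vertical axis) against direct (horizontal axis) log2 ratio of PDGFRα-CAR+ over PDGFRα+CAR+ RNA, 1 point per probe above background in either pool, with the line of equality and dashed lines at 1 and -1. Counted higher (red) and counted lower (blue) probes follow the line, with 209 of 296 and 177 of 278 above it.

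Within the counted probes the routes did not differ evenly. The indirect ratio was above the direct ratio for 70.6% of the higher and 63.7% of the lower probes, compared with 43.9% of all 15824 probes. The indirect route thereby gave larger sizes for higher probes (median 1.59, against 1.48 direct) and smaller sizes for lower probes (median -1.38, against -1.44 direct). The shifts were small, with medians of 0.11 and 0.071. The routes differed by at least 0.5 for 10 higher and 12 lower probes, and by at least 1 for 0 higher and 3 lower probes. The array of the CAR+ pools was scanned in a later run than the others, per the file headers. The part of scan run or dye in these shifts was not tested.

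Counted probes were more frequent at middle than at low signal. Over the probes above background in all pools, 148 of 4051 in the middle part by signal were higher (3.65%), compared with 75 in the bright part (1.85%) and 17 in the dim part (0.42%). Lower probes numbered 74, 80 and 4 in the same order. The offset holds dim ratios close to 0, so the low counts among dim probes are a property of the measurement as well. The 90 probes with a mean log2 signal of 14 or more had a median direct ratio of -0.27, with 78 of them below 0, while their median indirect ratio was -0.051. Low ratios of these probes were not limited to this array. They had medians of -0.46 for PDGFRα-CAR+ and -0.36 for PDGFRα+CAR+ RNA, each over PDGFRα-CAR- RNA. Their median on the direct array was -0.23 in the authors' deposited ratios and 0.64 with median centring. None of them was counted as higher or lower.

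The higher probes carried 2.04% of the summed probe signal above the background limit in the PDGFRα-CAR+ pool and 0.42% in the PDGFRα+CAR+ pool on the direct array. The lower probes carried 1.06% and 3.86%. These shares describe the selection, since the probes were chosen on the same ratios. Among the higher probes, 240 were above background in both pools. For another 36, the PDGFRα+CAR+ pool was below the limit on both of its arrays. For these the difference was at least 2.01-fold to at least 7.78-fold (median bound 3.08-fold), taking the lowest signal above background in place of the dim one. Without dye-swapped arrays such bounds are subject to dye bias. The remaining 20 were measured in the PDGFRα+CAR+ pool on 1 array. Of the lower probes, 270 were above background in both pools. The PDGFRα-CAR+ pool was below the limit on both arrays for 4 and on 1 array for another 4. For the first 4, the bounds ran from at least 2.21-fold to at least 3.64-fold.

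Levels in the PDGFRα-CAR- pool differed between the higher and the lower probes. The PDGFRα- pools were within 2-fold of each other for 209 of the 296 higher probes (70.6%), a smaller share than the 95.3% of all 15824 probes. The median log2 ratio of PDGFRα-CAR+ over PDGFRα-CAR- RNA was -0.054 (quartiles -0.76 and 0.47). At least 2-fold higher in the PDGFRα-CAR+ pool were 30 of the probes, and at least 2-fold lower 57, compared with 403 and 341 of all 15824 probes. The PDGFRα+CAR+ pool was lower than the PDGFRα-CAR- pool, with a median of -1.79 (quartiles -2.62 and -1.12). Of the 296 probes, 234 were at least 2-fold lower there, compared with 710 of all 15824. All 296 were above background in the PDGFRα-CAR- pool, compared with 80.8% of the 15568 probes above background in the PDGFRα-CAR+ pool. These shares are not like for like, since the indirect ratio through PDGFRα-CAR- RNA helped choose the 296. On the direct array the 296 were brighter in Cy3, with a median signal of 589 against 213 over all 15824 probes. They were dimmer in Cy5, at 47.5 against 76. Both follow the selection, since Cy3 carried the PDGFRα-CAR+ RNA in which these probes were chosen to be higher. The sign of the small median between the PDGFRα- pools was not stable. It was 0.48 with median centring, 0.14 with local background subtracted, 0.083 with local background entered in normexp, 0.0066 when probes were chosen on the indirect ratio alone, and -0.25 in the authors' deposited ratios.

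By their medians, the 278 lower probes followed a graded order. The PDGFRα-CAR- pool was lowest, with the PDGFRα-CAR+ pool a median of 0.72 above it on the log2 scale (quartiles 0.31 and 1.31). The PDGFRα+CAR+ pool was 2.19 above it (quartiles 1.67 and 2.95). The PDGFRα- pools were within 2-fold of each other for 174 of the 278 (62.6%), against 95.3% of all 15824 probes. The PDGFRα-CAR+ pool was at least 2-fold above for 100 and below for 4, compared with 403 and 341 of all 15824. The PDGFRα+CAR+ pool was at least 2-fold above for 266, compared with 873 of all 15824. The PDGFRα-CAR- pool was at or below the PDGFRα-CAR+ pool for 253 of the 278 probes. Its level lay between the CAR+ pools for 21, and at or above the PDGFRα+CAR+ pool for 4. For the higher probes the corresponding numbers were 153 at or above the PDGFRα-CAR+ pool, 135 between the CAR+ pools and 8 at or below the PDGFRα+CAR+ pool. In the PDGFRα-CAR- pool 120 of the 278 lower probes were not above background, so that 56.8% of them were, against 86.3% of the 14098 probes above background in the PDGFRα+CAR+ pool. Over the 158 above background there, the medians were 0.73 and 2.14. The step from the PDGFRα-CAR- to the PDGFRα-CAR+ pool was 0.045 when local background was subtracted and 0.43 to 0.88 in the other settings. These ratios share pools with each other and with the indirect ratio that helped choose the probes. They are a description, and PDGFRα-CAR- RNA was measured in Cy5 alone.

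**Figure D3:**
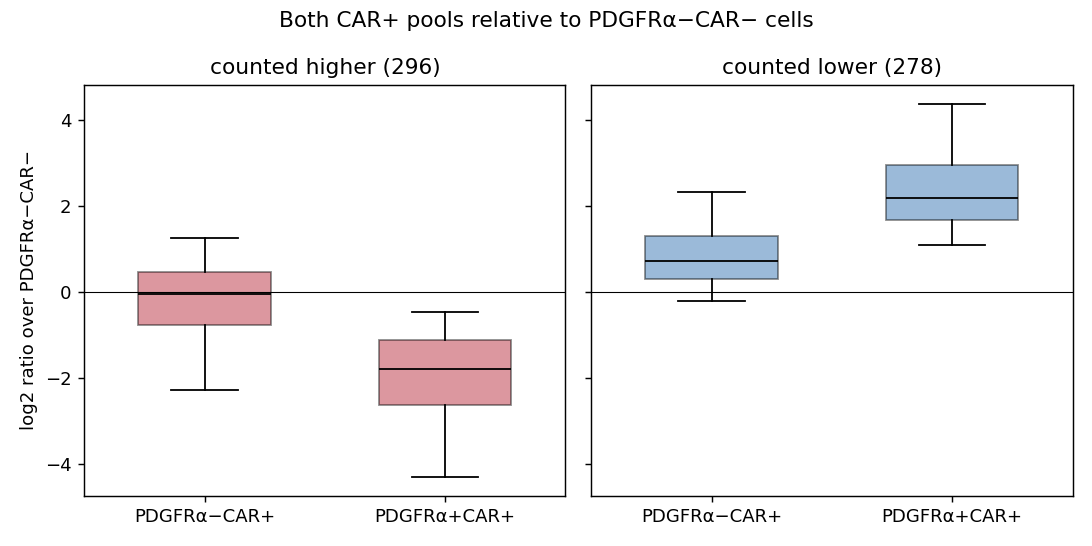
Log2 ratio of each CAR+ pool over the PDGFRα-CAR- pool for the 296 probes counted as higher (left) and the 278 counted as lower (right) in the direct comparison of the CAR+ pools. Boxes span the quartiles with the median as a line, and whiskers reach the 5th and 95th percentiles over probes. On the left the PDGFRα-CAR+ box spans 0 and the PDGFRα+CAR+ box lies below it, and on the right both boxes lie above it.

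Probes at least 4-fold apart were also described against the PDGFRα-CAR- pool. For the 69 higher probes the median was 0.098 with PDGFRα-CAR+ and -2.69 with PDGFRα+CAR+ RNA, each over PDGFRα-CAR- RNA. For the 30 lower probes the medians were 0.96 and 3.54, and 17 of the 30 were not above background in the PDGFRα-CAR- pool.

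The probes named here are the 2 in each direction whose smaller ratio of both routes was largest. Probe M200000146 had signals of 2986 and 3400 in the PDGFRα-CAR+ pool on its arrays, the first value being from the array of the CAR+ pools. In the PDGFRα+CAR+ pool it had 43 (Cy5) and 105 (Cy3), above limits of 26 and 76. Its signals in the PDGFRα-CAR- pool were 754 and 667. The direct log2 ratio was 4.01 and the indirect 4.35, so the PDGFRα-CAR+ pool was about 16.1-fold or 20.4-fold higher. Between the PDGFRα- pools this probe was higher where CAR was present, with a log2 ratio of 0.92.

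Probe M200006408 was bright in both PDGFRα- pools, at 4644 and 5086 with CAR and at 3847 and 3238 without it. Its PDGFRα+CAR+ signals were 88 and 199. Its direct log2 ratio was 3.93 and its indirect ratio 4.04, or 15.3-fold and 16.5-fold. Unlike M200000146, it was lower in the CAR+ than in the CAR- pool among PDGFRα- cells, with a log2 ratio of -0.78, so PDGFRα+CAR+ was its lone low pool.

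Probe M400001027 had signals of 127 and 155 in the PDGFRα-CAR+ pool. Its PDGFRα+CAR+ signals were 1515 (Cy5) and 3928 (Cy3). Both PDGFRα-CAR- signals, 50 and 69, were above their limits of 29 and 35. The direct log2 ratio was -4.85 and the indirect -4.40, or 28.8-fold and 21.1-fold lower in the PDGFRα-CAR+ pool. Between the PDGFRα- pools its log2 ratio was 0.060.

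Probe M200001112 had signals of 172 and 203 in the PDGFRα-CAR+ pool, and far higher ones of 1225 (Cy5) and 2610 (Cy3) where PDGFRα was present. Its direct log2 ratio was -4.11 and its indirect ratio -3.58, or 17.3-fold and 11.9-fold lower in the PDGFRα-CAR+ pool. In the PDGFRα-CAR- pool, at 22 and 28, it was below the limits of 29 and 35 on both arrays.

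Each of the named probes kept its direction in the reported setting and all alternatives. M200001112 is not among the 57 probes counted as lower every time, since the authors' deposited table gives no indirect ratio for it. The log2 ratio, direct except where the indirect route was used alone, ranged from 3.58 to 5.57 for M200000146, from 3.63 to 4.71 for M200006408, from -5.96 to -4.08 for M400001027 and from -4.97 to -3.42 for M200001112. The routes differed by 0.34, 0.11, 0.45 and 0.53 in the same order, each with the indirect ratio above the direct.

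**Figure D4:**
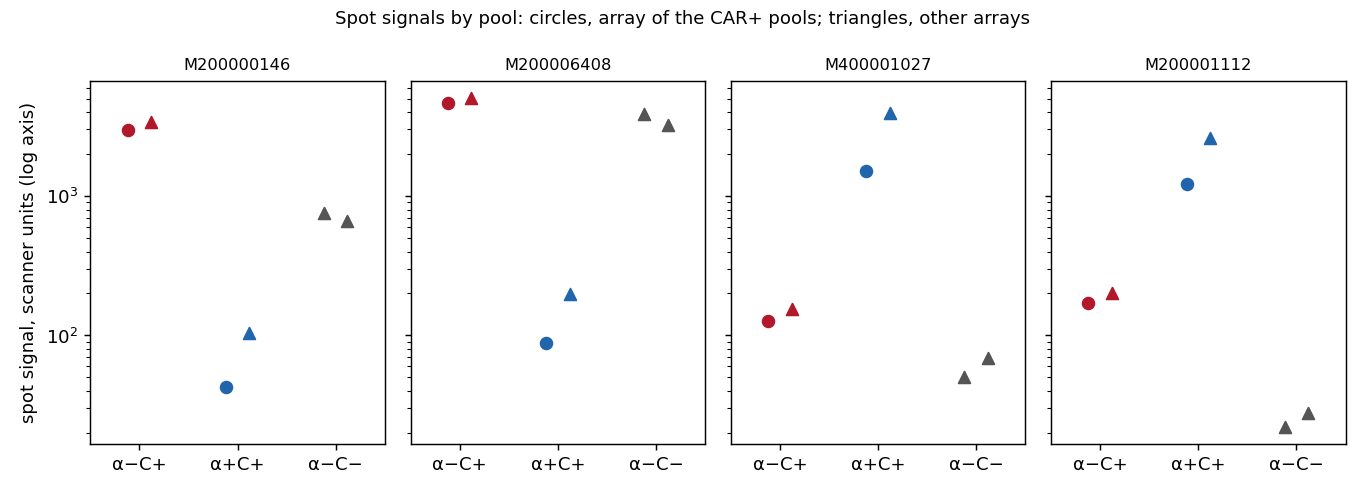
Spot signal in scanner units (vertical log axis) of the 4 named probes in PDGFRα-CAR+ (α−C+), PDGFRα+CAR+ (α+C+) and PDGFRα-CAR- (α−C−) pools, 1 point per array. Circles are from the array of the CAR+ pools and triangles from the others. Channels differ in gain, so heights compare only roughly between pools. M200000146 and M200006408 are low in the PDGFRα+CAR+ pool, and M400001027 and M200001112 are high there.

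Counted probes were unevenly spread over the identifier series of the array. Identifiers starting with M2 made up 38.4% of probes above background in either CAR+ pool, but 55.7% of the higher and 47.8% of the lower probes. Those starting with M3 made up 30.0% of the probes above background, 26.7% of the higher and 29.5% of the lower. Those starting with M4 made up 31.6%, 17.6% and 22.7%. The signal moved with the series. The median Cy3 signal among probes above background was 295 for M2, 190 for M3 and 163 for M4, and the part of signal in the uneven spread was not tested. Over the 24 print blocks, the block medians of the direct ratio ran from -0.035 to 0.043. The higher probes numbered 6 to 20 per block and the lower 7 to 17.

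The authors' deposited table had a ratio for 17045 of 23473 probes on this array. It held a value for 284 of the 296 higher and 276 of the 278 lower probes. Each of these values had the same sign as the direct ratio and reached 1 in size. The authors' medians were larger, at 2.60 for the higher and -2.13 for the lower probes, against 1.47 and -1.44 for the same probes in the direct ratios computed here. For M200000146, M200006408, M400001027 and M200001112 the authors' deposited log2 ratios were 5.57, 4.62, -5.96 and -4.90.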

How the data were processed

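Total RNA of 3 sorted pools had been amplified, dye-coupled and hybridised to TORAY mouse arrays, per the labels' protocols. Per the file headers, the scanner tables hold deposited spot intensities at 635 nm (Cy5) and 532 nm (Cy3), with no normalisation or background step recorded. A table of normalised log2 ratios was deposited as well, and the sources used here do not state its method.

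Spot medians were corrected by normexp (offset 50) and normalised by loess within each array (span 0.3), with control and flagged spots at weight 0, in limma 3.58.1 under R 4.3.3. Local background was not used, because it followed the spot (correlation of log2 values 0.91 and 0.93 on this array). Bounds for dim probes were taken from single-channel values after A-quantile scaling between arrays. Spots of 1 probe were averaged. Counts were made in Python 3.11.15, and the steps were checked on simulated data.

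Because each population was 1 pool and each comparison 1 array, no test was possible, and the number of arrays limits the precision. The counting rule and the rule for named probes (2 per direction, by the smaller size of both ratios) were chosen with earlier results of these data known. Gene lists of cell type markers were set aside, as no table used here pairs probes with genes. Alternatives varied background, scaling, route, background limit and source of the ratios. The mean pixel in place of the median was added after the data were seen.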

Additional observations from a re-analysis of the deposited data

Results flagged for a closer look

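The positive control spots take part in no comparison, and on the array of the CAR+ pools the median of each positive control lay outside the range of the negative control spots. The 96 negative control spots had log2 ratios of -0.15 to 0.21, with signals near the blank level. The offset holds ratios at that level close to 0, so this range is no measure of spread for bright spots. Positive control 2 had a median log2 ratio of -0.29 over 24 spots (-0.45 to -0.10), at median signals of 5867 in Cy3 and 2694 in Cy5. Positive control 3 had a median of -0.57 over 24 spots (-0.74 to -0.27), at 30144 and 16422. All 48 positive control spots were below 0. Of the 90 probes with a mean log2 signal of 14 or more, 78 were below 0 as well, with a median direct ratio of -0.27. The 205 probes from 12 to 13 had a median of -0.005. The part of signal in the control ratios was not tested. The labels do not say what the controls are or in what amounts they were added.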

How the results depend on the processing

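Of the higher and lower counts, 296 and 278 here, those that moved by over 1.5 times became 516 and 451 with an offset of 10, 846 and 779 with local background subtracted, 185 and 162 with local background in normexp, and 638 and 476 in the authors' ratios. With median centring the lower count became 132, and the higher count 436. Of the 278 lower probes, 130 were still counted there, 150 with local background in normexp, and 199 in the authors' ratios. The technical SD of 0.083 became 0.41 with local background subtracted, 0.19 with local background in normexp and 0.17 with median centring. The cause was not tested. Without background correction 372 and 361 were counted, by the direct ratio alone 324 and 319, by the indirect alone 335 and 311, within print blocks 292 and 274, and by mean pixels 291 and 276. Stricter, looser or no background limits left the counts at 296 and 278. The offset holds ratios near the blank level close to 0, so these limits could change little and are a weak check. Dim probes are limited by the offset and by Cy5 signals close to the blank spots. The probe with 2 spots gave direct log2 ratios of -0.0049 and -0.14.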
